A study of Mus musculus with 29 samples.

Results

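The respiratory chain is represented here by 58 genes, chosen by symbol from the 38124 genes of the deposited tables: 45 nuclear genes for subunits of complexes I to IV and cytochrome c, and the 13 protein genes of the mitochondrial genome. All 58 were found, and all 58 passed the filter on low counts in both tissues. The study sequenced liver RNA and hindlimb muscle RNA; its 16 mice were male C57BL/6, bought at 14 weeks of age and assigned at 4 months to 4 diets. Control mice were given 95% of the intake they chose when food was free (13.6 kcal per day), and soy, fish and lard mice 60% (8.6 kcal per day). The labels name the restricted diets only as soy, fish and lard and do not give the fat of the control diet, so restriction and fat cannot be told apart in comparisons with control. Liver was analysed in 3 control, 4 soy, 4 fish and 4 lard mice and muscle in 4 control, 3 soy, 3 fish and 4 lard mice, 29 libraries in all. A control liver (mouse 1071) and a fish muscle (mouse 1125) had been dropped by the submitters, who found that they clustered elsewhere and had RNA of lower integrity. The soy muscle of mouse 1159 is also absent from the libraries, so that mouse is represented by its liver alone.

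The respiratory chain passes electrons from NADH through complex I, or from succinate through complex II, to ubiquinone, then through complex III and cytochrome c to complex IV, which reduces oxygen. Complexes I, III and IV pump protons across the inner mitochondrial membrane, and ATP synthase (complex V) uses that gradient. Complex II is wholly nuclear encoded, whereas the other complexes join nuclear subunits with a core made in the mitochondrion from long transcripts of the mitochondrial genome. Heart and skeletal muscle use their own isoforms of some complex IV subunits, Cox6a2, Cox7a1 and Cox8b in the mouse, where liver uses Cox6a1, Cox7a2 and Cox8a.

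The coding sequences of the Cox8 pair are shown because these genes gave one of the largest contrasts between the tissues. They are from GENCODE M21 (GRCm38), 210 and 213 bases long, and capitals mark the bases that match in a global alignment of the pair.
Cox8a: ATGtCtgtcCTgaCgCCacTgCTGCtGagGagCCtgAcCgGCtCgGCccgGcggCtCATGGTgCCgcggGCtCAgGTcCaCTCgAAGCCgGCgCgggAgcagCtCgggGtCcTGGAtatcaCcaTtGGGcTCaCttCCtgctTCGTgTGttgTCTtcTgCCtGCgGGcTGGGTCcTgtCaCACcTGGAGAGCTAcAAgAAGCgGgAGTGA
Cox8b: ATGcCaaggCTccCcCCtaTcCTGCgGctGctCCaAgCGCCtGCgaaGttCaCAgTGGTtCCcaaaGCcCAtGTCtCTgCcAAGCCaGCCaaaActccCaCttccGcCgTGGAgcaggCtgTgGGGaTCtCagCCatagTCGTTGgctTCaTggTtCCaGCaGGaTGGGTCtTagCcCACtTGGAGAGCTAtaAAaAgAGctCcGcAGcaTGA
Of 203 aligned pairs of bases 121 were identical (59.6%), against 67.1% for Cox7a1 and Cox7a2 and 68.9% for Cox6a1 and Cox6a2. Of the Cox6a2 exon reads 57.5% were unique in muscle and 57.8% in liver, so its counts are less certain. For the other 5 isoforms, over 99.9% of the exon reads were unique in each tissue.

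Promoters are shown for a liver-type and a muscle-type isoform, chosen because a searched motif was found in them; the windows of Cox8a, Cox7a1 and Cox7a2 held none. The windows are the 250 bases before the gene start from RefSeq (GRCm38.p6), and 34 of the 45 nuclear members were matched. Capitals in Cox6a1 (chr5:115348959-115349208, minus strand) mark the palindromic core of nuclear respiratory factor 1 sites, which is TGCGC after its own reverse complement, and CCGGAAG, the core of ETS factor sites, here read on the opposite strand. Capitals in Cox8b (chr7:140900447-140900696, minus strand) mark CAGCTG, an E-box of the form bound by myogenic factors.
Cox6a1: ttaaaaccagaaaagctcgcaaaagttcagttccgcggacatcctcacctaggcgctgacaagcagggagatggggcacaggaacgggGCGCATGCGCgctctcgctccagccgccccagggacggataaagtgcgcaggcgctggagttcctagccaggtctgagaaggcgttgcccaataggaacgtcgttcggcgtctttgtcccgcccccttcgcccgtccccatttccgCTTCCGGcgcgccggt
Cox8b: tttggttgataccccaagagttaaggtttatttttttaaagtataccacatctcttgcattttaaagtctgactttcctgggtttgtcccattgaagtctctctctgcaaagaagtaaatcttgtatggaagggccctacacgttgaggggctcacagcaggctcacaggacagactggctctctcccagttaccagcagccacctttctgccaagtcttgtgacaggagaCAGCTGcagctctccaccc
Searched on both strands, the palindrome was found in 1 of the 34 members (Cox6a1) and in 0.782% of all 32851 RefSeq windows of the same length. A looser form, GCGC then any base then TGCGC, which includes it, was found in 6 members (17.6%; Cox6a1, Ndufa5, Ndufa8, Ndufs6, Sdha and Sdhd) and in 3.74% of all windows. CCGGAAG was in 5 members (14.7%) and 6.91% of all windows, and CAGCTG in 4 members (11.8%) and 13% of all windows. Cores of the sites of YY1, of the oestrogen-related receptors and of MEF2 were in 0 members and in 0.606%, 1.14% and 0.14% of all windows. These matches describe letters in the windows and no binding was measured.

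On the mitochondrial genome some members share bases, so reads on the shared bases belong to either gene. The end of mt-Atp8 and the start of mt-Atp6 (both GENCODE M21, GRCm38) share the 43 bases in capitals, at MT 7927 to 7969.
mt-Atp8: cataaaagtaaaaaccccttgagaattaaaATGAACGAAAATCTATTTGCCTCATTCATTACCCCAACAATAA
mt-Atp6: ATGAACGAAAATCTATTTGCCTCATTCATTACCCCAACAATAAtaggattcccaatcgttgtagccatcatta
The end of mt-Nd4l and the start of mt-Nd4 share the 7 bases in capitals, at MT 10167 to 10173.
mt-Nd4l: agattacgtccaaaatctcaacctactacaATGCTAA
mt-Nd4: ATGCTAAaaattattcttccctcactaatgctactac
Of the exon reads given to mt-Nd4l 0% were unique, so its counts are uncertain, as are those of Cycs (15.0% unique in liver). For mt-Nd4, mt-Atp8 and mt-Atp6, which also share bases, 100% were unique in both tissues. The part of the shared bases in the mt-Nd4l value was not tested. mt-Nd5 and mt-Nd6 share 14 bases and lie on opposite strands, and no source used here gives the strand setting of the counting. The ribosomal RNA genes mt-Rnr1 and mt-Rnr2 carry 0 exon reads in every library and 2983 to 27259 gene reads, and are not members.

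The libraries held 11315231 to 27106865 exon reads. Hepatocyte markers (10 genes) summed to 108890 to 173523 CPM (a gene's exon reads scaled to a common library size) in liver and 241 to 752 in muscle. Skeletal muscle markers (10 genes) summed to 124434 to 226068 CPM in muscle and to 177 to 3087 in liver, the highest liver being fish liver 1123. In 4 libraries the chain stood apart from the rest of its tissue: the soy livers of mice 1073 and 1159 and the control muscles of mice 1071 and 1120. Medians and named members in the diet comparisons that involve them are given with and without them. Each library of a tissue is from a different mouse. In whole tissue, fewer cells of a type and less RNA per cell cannot be told apart.

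Per kilobase of exon, the mitochondrially encoded members stood above the nuclear members in both tissues. mt-Co1, the catalytic subunit of complex IV, had the highest level, with 14673 ± 1913 RPKM (exon reads per kilobase of exon and by library depth; SD, n = 15) in liver and 30538 ± 6655 (n = 14) in muscle. mt-Nd4l, a membrane subunit of complex I, had the lowest mean of the 13, 1517 ± 478 RPKM in liver and 3501 ± 1170 in muscle. The highest nuclear mean was Ndufa4 in liver, 549 ± 136 RPKM, and Cox6a2 in muscle, 1204 ± 393 RPKM. The lowest nuclear means were Cox8b in liver, 2.28 ± 4.16 RPKM, and Cox6a1 in muscle, 39.9 ± 14.5 RPKM.

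Within a tissue, and without the 4 libraries that stood apart, most nuclear members varied little between mice, whatever the diet. Those libraries were set aside because the chain stood apart in them, so a lower spread without them partly follows from that choice. The nuclear members' coefficient of variation over the 13 livers had a median of 6.20%. It ran from 2.71% (Ndufa9, an accessory subunit of complex I, with 119, 125 and 131 CPM as lowest, median and highest) to 188% (Cox8b). Cox6a2 had 142% and Cox7a1 46.6%. Over the 12 muscles the median was 6.70%, from 3.67% (Ndufc2, a complex I subunit) to 35.0% (Cox6a2). The mitochondrially encoded members had medians of 9.98% in liver and 14.3% in muscle. With the 4 libraries included, the nuclear medians were 24.9% in liver and 18.9% in muscle.

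Nearly the whole chain took a larger share of reads in muscle than in liver. In a fit of all 8 groups with edgeR's quasi-likelihood test (Benjamini-Hochberg adjusted p under 0.05 over 14150 genes), 53 of 58 members were higher in muscle and 3 were lower, where 86.6% of all genes tested passed in either direction. All 13 mitochondrially encoded members and 40 of 45 nuclear members were higher, with median log2 differences of 1.06 and 0.74 against 0.02 over all genes tested. Over the nuclear members the medians were 0.82 for complex I (21 genes), 0.57 for complex II (4 genes), 0.72 for complex III with cytochrome c (8 genes) and 0.68 for complex IV (12 genes). The 13 mitochondrially encoded members spanned a narrow range, from 0.82 ± 0.16 (SE) for mt-Nd2 to 1.26 ± 0.14 for mt-Nd1, both core subunits of complex I. In the plot of member differences by complex, the complex IV isoforms leave the band of the other members.

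**Figure D1:**
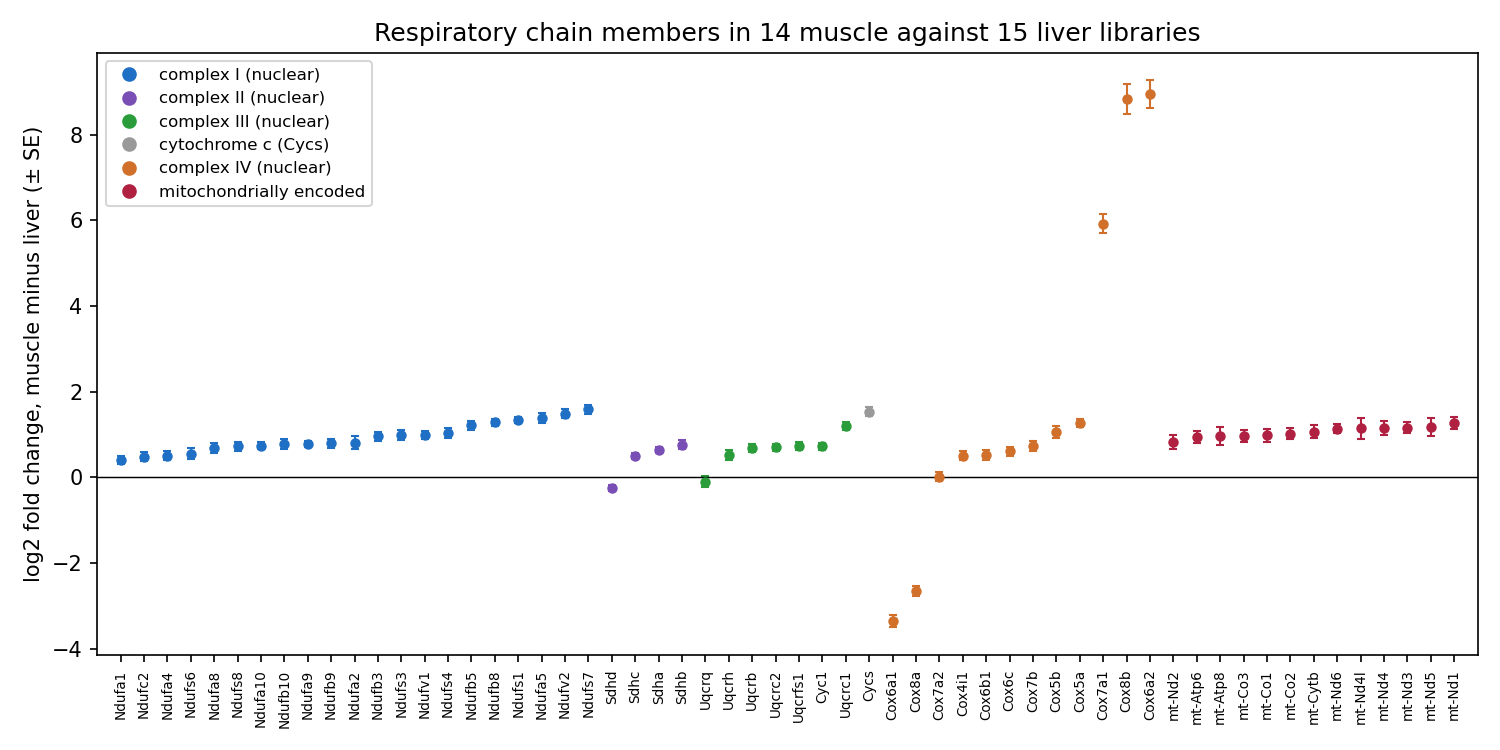
Log2 fold change of each member (± SE), muscle minus liver, from edgeR over 14 muscle and 15 liver libraries; colours give the complex, with the mitochondrially encoded members last, and members are ordered by value within each. Cox6a2, Cox8b and Cox7a1 lie between 5.92 and 8.95, Cox6a1 and Cox8a at -3.35 and -2.65, and the mitochondrially encoded members between 0.82 and 1.26.

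Subunit 6a of complex IV came from different genes in the tissues. Cox6a2 had 0.833, 1.37 and 11.8 CPM as lowest, median and highest of 15 livers and 491, 835 and 1496 CPM in 14 muscles. The log2 difference was 8.95 ± 0.32 (adjusted p = 9.1e-20). Cox6a1 had 180, 221 and 409 CPM in liver and 15.8, 21.6 and 44.98 CPM in muscle, a log2 difference of -3.35 ± 0.15 (adjusted p = 1.8e-17). The 2 tissues did not overlap for either gene.

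Subunit 8 showed the same pattern. Cox8b had 0.138, 0.477 and 6.77 CPM in liver and 228, 297 and 557 CPM in muscle, a log2 difference of 8.83 ± 0.36 (adjusted p = 1.7e-18). Cox8a had 122, 152 and 216 CPM in liver and 18.4, 24.3 and 41.3 CPM in muscle, a log2 difference of -2.65 ± 0.12 (adjusted p = 1.5e-17). Again no liver reached the muscles for Cox8b, nor any muscle the livers for Cox8a.

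Subunit 7a was different in that the liver-type form was at a like level in muscle. Cox7a1 had 1.82, 2.49 and 6.83 CPM in liver and 108, 189 and 439 CPM in muscle, a log2 difference of 5.92 ± 0.22 (adjusted p = 2.0e-19). Cox7a2 had 106, 122 and 236 CPM in liver and 105, 132 and 212 CPM in muscle, and its log2 difference of 0.02 ± 0.11 did not pass (adjusted p = 0.87). Its direction turned when some single libraries were left out (-0.03 to 0.07).

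The muscle isoforms were high in fish liver 1123. Cox6a2, Cox7a1 and Cox8b had 11.8, 6.83 and 6.77 CPM there, where the other 3 fish livers had 1.20 to 1.70, 1.82 to 2.68 and 0.261 to 0.783 CPM. Soy livers 1073 and 1159 had 5.16 and 6.73 CPM of Cox7a1. In the deposited RPKM of this gene soy liver 1159 (17.5) stood above fish liver 1123 (17.2). Within a gene the exon length is the same, so the order can differ only through the library depth each measure divides by. Skeletal muscle markers summed to 3087 CPM in fish liver 1123 against 183 to 343 CPM in the other 3 fish livers, and their part in the isoform values was not tested.

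In muscle the liver-type isoforms Cox6a1 and Cox8a were highest in control muscle 1120 (44.98 and 41.2 CPM) and soy muscle 1073 (39.2 and 41.3 CPM). The other soy muscles had 15.8 and 19.8 CPM of Cox6a1 and 24.7 and 23.9 CPM of Cox8a. Adipocyte markers (8 genes) summed to 1742 CPM in soy muscle 1073, the highest of the muscles, and to 496 CPM in control muscle 1120. Neutrophil markers (12 genes) and erythroid markers (9 genes) summed to 1287 and 7817 CPM in control muscle 1120, the highest of the muscles. In soy muscle 1073 they summed to 5.86 and 1160 CPM. The part of these 3 lists was not tested.

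The muscle forms Cox6a2 and Cox7a1 were ordered differently in the fish muscles. Fish muscle 1124 had the highest Cox6a2 of all muscles, 1496 CPM, and the lowest Cox7a1, 108 CPM. Fish muscles 1067 and 1123 had 786 and 1106 CPM of Cox6a2 and 219 and 190 CPM of Cox7a1. Markers of slow and oxidative fibres (10 genes) summed to 3636 CPM in fish muscle 1124 and to 7109 and 15116 CPM in the other fish muscles, and their part was not tested.

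Outside the isoforms and Cycs, the largest muscle excess among the members was that of Ndufs7, a core iron-sulfur subunit of complex I (log2 difference 1.59 ± 0.11; 238 against 75.7 CPM). Ndufv2, another core iron-sulfur subunit, followed with 1.49 ± 0.10, then Ndufa5 with 1.39 ± 0.12, Ndufs1 with 1.34 ± 0.07 and Ndufb8 with 1.28 ± 0.09. Cycs, the electron carrier cytochrome c, had 1.53 ± 0.10, second to Ndufs7, from reads that were mostly not unique; it was singled out after its value was seen. These 6 did not overlap between the tissues. In all, 18 members lay wholly higher in muscle and 2 wholly lower, as 25.1% and 20.8% of all genes did. Sdhd, a membrane anchor of complex II, was lower in muscle by 0.25 ± 0.07 on the log2 scale (225 against 259 CPM; adjusted p = 0.0020). With offsets corrected for exon length the Sdhd difference was -0.14 and did not pass, and with control mice alone it was -0.08 and did not pass. Uqcrq, a small subunit of complex III, had a difference of -0.10 ± 0.13, which did not pass and turned to 0.04 and 0.33 under those settings.

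Other genes of the same machinery were compared between the tissues, where 43.9% of all genes were higher in muscle and 42.7% lower. Of 16 further complex I subunits tested, 15 were higher in muscle and 0 lower (edgeR; median 0.96), among them the accessory subunit Ndufa12 (1.68 ± 0.10; 135 against 40.8 CPM). Nuclear ATP synthase subunits had 14 of 17 higher and 0 lower (median 0.74), with Atp5c1, the gamma subunit, at 1.10 ± 0.08. The citric acid cycle had 14 of 17 higher and 1 lower (median 1.17). Idh3a, of the NAD-linked isocitrate dehydrogenase, differed by 3.51 ± 0.07 and Cs, citrate synthase, by 2.58 ± 0.08. Suclg2, the GTP-forming succinate ligase subunit, was the one lower at -2.10 ± 0.06. Further subunits of complexes III and IV had 3 of 6 higher, near the share of all genes, and 0 lower (median 0.37). Cox4i2 differed by 3.53 ± 0.37, from 0.114 CPM in liver to 1.44 CPM in muscle.

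Among groups that build or control the chain, genes passed in both directions, as 43.9% of all genes were higher and 42.7% lower. Of 41 assembly factors tested, 21 were higher and 8 lower in muscle (median 0.29); Ndufaf5, a complex I assembly factor, differed by 2.90 ± 0.11 and Uqcc2, of complex III, by 2.73 ± 0.12. Genes of mitochondrial gene expression had 9 of 24 higher and 11 lower (median -0.08), with Fastk at 1.60 ± 0.07 and Polg2, the accessory subunit of the mitochondrial DNA polymerase, at -1.38 ± 0.09. Among 15 transcriptional regulators 7 were higher and 5 lower (median 0.04). Perm1, a muscle regulator of oxidative genes, differed by 8.13 ± 0.25 (173 against 0.679 CPM), and Sirt3, a mitochondrial deacetylase, by -2.91 ± 0.09. Carriers and porins had 8 of 12 higher and 4 lower (median 1.22). The aspartate-glutamate carriers changed places, with Slc25a12 at 4.35 ± 0.09 and Slc25a13 at -7.41 ± 0.14.

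Diet was compared within each tissue, for each restricted diet against control and among the restricted diets, in a fit that held the 4 diets of that tissue. No member passed edgeR's test in any of the 12 comparisons. For each comparison the share of all genes that passed, the members at an unadjusted p under 0.05 and the members called by DESeq2 are given. limma-voom called 0 members in all 12.

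Soy against control in liver gave higher values for nearly all nuclear members: the median log2 change was 0.62 over the 45 nuclear members, of which 44 were positive, against 0.08 over the 13 mitochondrially encoded members. edgeR called 0 of 58 where 1.17% of all genes passed; 38 had an unadjusted p under 0.05 (22.3% of all genes), 37 of them nuclear, and DESeq2 called 15 (6.77% of all genes). Nuclear medians were 0.67 for complex I, 0.34 for complex II, 0.54 for complex III with cytochrome c and 0.64 for complex IV. The smallest p belonged to Ndufc2, with 51.7, 50.8 and 53.6 CPM in the control livers and 56.1, 113, 57.0 and 102 CPM in soy livers 1065, 1073, 1141 and 1159. The change was 0.83 ± 0.24 (edgeR adjusted p = 0.085), and both high values came from the livers that stood apart. Ndufa8, an accessory subunit of complex I, had 71.8, 61.8 and 71.5 CPM in controls and 68.2, 153, 76.3 and 131 CPM in the same order (0.83 ± 0.25, adjusted p = 0.094). Without livers 1073 and 1159 the nuclear median was 0.06 and the mitochondrial 0.19, Ndufc2 stood at 0.18 and Ndufa8 at 0.14, and edgeR called 0 members (0.202% of all genes) and DESeq2 0 (2.12%). With the other libraries kept, the mitochondrial median was -0.05 without control liver 1095, 0.25 without 1120 and 0.03 without 1121.

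Fish and lard livers differed little from control livers in the nuclear members. For fish the nuclear median was -0.02 and the mitochondrial -0.07, with 0 of 58 called where 0.383% of all genes passed, 2 at an unadjusted p under 0.05 (8.93% of all genes) and 0 by DESeq2 (1.29% of all genes). Those 2 were Cox6a2 (1.89 ± 0.67, edgeR adjusted p = 0.37) and Cox8b (2.73 ± 0.99, adjusted p = 0.39), which became 0.47 and 0.73 without fish liver 1123. For lard the nuclear median was 0.10, and 0 of 58 were called where 0.508% of all genes passed, with 3 at an unadjusted p under 0.05 (9.99% of all genes) and 1 by DESeq2 (2.14% of all genes). Without control liver 1095 the nuclear medians were -0.09 for fish and 0.04 for lard, and without control liver 1120 the fish medians were 0.03 nuclear and 0.01 mitochondrial.

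In lard livers all 13 mitochondrially encoded members were above control, with a median of 0.25 and a range of 0.17 to 0.42. The median was 0.14 without control liver 1095. Hepatocyte markers also stood higher, with sums of 141417 to 166634 CPM in lard livers and 108890 to 126127 CPM in control livers (1 of 10 passed edgeR's test), and their part was not tested. Without livers 1073 and 1159, which are in neither group, DESeq2 called 3 members (4.88% of all genes) and edgeR 0 (1.83%). mt-Nd1 had 4769, 5049 and 4467 CPM in the control livers and 5389, 6067, 6089 and 6441 CPM in the lard livers, with no overlap. The change was 0.42 ± 0.14 (edgeR adjusted p = 0.22; DESeq2 adjusted p = 0.048). mt-Nd6 changed by 0.38 ± 0.14 (edgeR adjusted p = 0.31), and its groups overlapped. The lard livers all lay above the controls in 8 of the 58 members, 4 nuclear and 4 mitochondrially encoded (mt-Nd1, mt-Nd2, mt-Co1 and mt-Atp8), where 3.32% of all genes did so. They lay wholly below in 4 nuclear members, where 12.7% of all genes did so.

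Fish against lard in liver involves none of the livers that stood apart. The 13 mitochondrially encoded members were all lower in fish, with a median of -0.34, against -0.10 for the nuclear members. edgeR called 0 of 58 where 0.203% of all genes passed, 9 had an unadjusted p under 0.05 (9.98% of all genes), 7 of them mitochondrially encoded, and DESeq2 called 1 (1.28% of all genes). Marker lists had 0 genes passing and medians of -0.25 for hepatocyte, -0.73 for erythroid, 0.99 for neutrophil, 0.35 for macrophage and 1.77 for skeletal muscle markers, the last with fish liver 1123 in the group. Their part was not tested. Without livers 1073 and 1159 DESeq2 called 8 members (3.54% of all genes) and edgeR 0 (0.76%). mt-Nd3, a membrane subunit of complex I, had 639, 742, 626 and 874 CPM in the fish livers and 981, 931, 1101 and 954 CPM in the lard livers. The groups did not overlap, and the change was -0.59 ± 0.16 (edgeR adjusted p = 0.19; DESeq2 adjusted p = 0.040). mt-Nd6 changed by -0.42 ± 0.13 (edgeR adjusted p = 0.26). Fish lay wholly below lard in 5 members (mt-Nd3, mt-Nd6, mt-Co1, mt-Co2 and mt-Co3), as 1.49% of all genes did, and wholly above in 0 members, as 12.6% of all genes did. As a share of all exon reads the 13 genes took 7.53% to 8.68% in fish livers, 9.06% to 9.87% in lard livers and 7.83% to 9.06% in control livers. The soy livers other than 1073 and 1159 had 9.12% and 9.74%.

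Against soy livers, the nuclear medians of fish and lard livers were negative. For fish the nuclear median was -0.64 and the mitochondrial -0.12, with 0 of 58 called where 0.0938% of all genes passed, 44 at an unadjusted p under 0.05 (23.1% of all genes) and 28 by DESeq2 (6.36% of all genes). mt-Nd3 had the smallest p (-0.69 ± 0.16, edgeR adjusted p = 0.10), and Cycs the next (-0.61 ± 0.16, adjusted p = 0.11). For lard the nuclear median was -0.54 and the mitochondrial 0.27, with 0 of 58 called where 0% of all genes passed, 35 at an unadjusted p under 0.05 (17.3% of all genes) and 8 by DESeq2 (1.18% of all genes). Ndufa1 (-0.63 ± 0.19) and Ndufa2 (-1.05 ± 0.32), small accessory subunits of complex I, had the smallest p (edgeR adjusted p = 0.23 for both). Without livers 1073 and 1159 the nuclear medians were -0.05 for fish and 0.04 for lard and the mitochondrial -0.29 and 0.07. mt-Nd3 then stood at -0.51 and Cycs at -0.21 for fish, Ndufa1 at -0.11 and Ndufa2 at 0.02 for lard. edgeR called 0 members and 0% of all genes in both, and DESeq2 0 (0.442% and 0.0155%). With all other libraries, the mitochondrial median for fish was -0.03 when soy liver 1141 was left out and -0.07 when 1065 was. Without soy liver 1073 the lard values were 0.16 mitochondrial, -0.35 nuclear and -0.69 for Ndufa2.

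**Figure D2:**
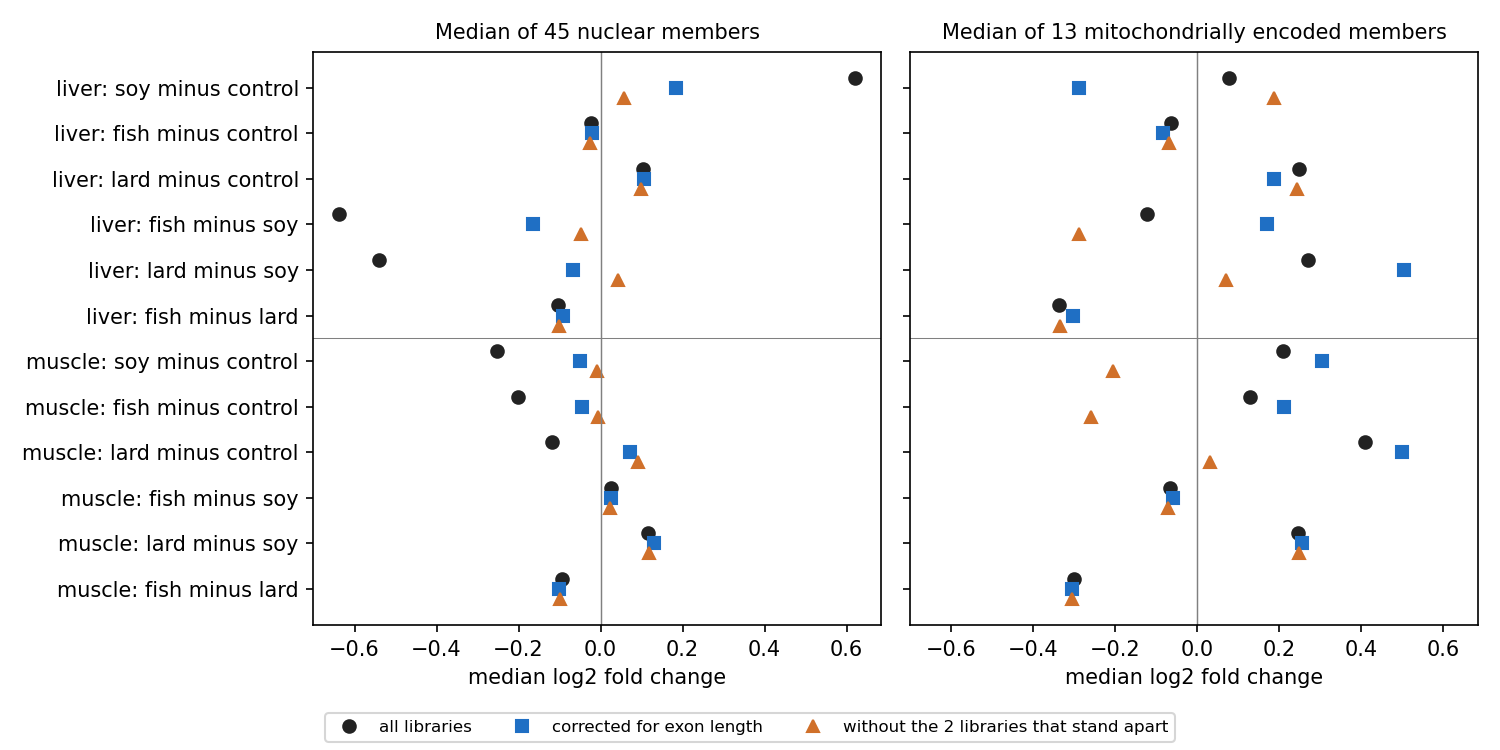
Median log2 fold change over the 45 nuclear members (left) and the 13 mitochondrially encoded members (right) in each of 12 diet comparisons; marker shapes give all libraries, offsets corrected for exon length, and the fit without the 2 libraries of that tissue that stood apart. The nuclear liver values of 0.62, -0.64 and -0.54 that involve soy move to 0.06, -0.05 and 0.04 without livers 1073 and 1159, while fish minus lard stays near -0.10 and -0.34.

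In muscle the nuclear medians of the restricted diets were below control and the mitochondrial medians above. The nuclear medians were -0.25 for soy, -0.20 for fish and -0.12 for lard, and the mitochondrial medians 0.21, 0.13 and 0.41. edgeR and DESeq2 each called 0 of 58 in all 3, where edgeR called 0%, 0.00763% and 0% of all genes and DESeq2 1.85%, 3.01% and 2.43%, with 8, 6 and 0 members at an unadjusted p under 0.05 (17.4%, 18.4% and 17.3% of all genes). Ndufa8 had 171, 136, 249 and 124 CPM in control muscles 1071, 1095, 1120 and 1121, and 101.4, 114 and 127 CPM in soy muscles (-0.60 ± 0.20, edgeR adjusted p = 0.21). Uqcrc1, a core subunit of complex III, changed by -0.46 ± 0.17 in soy (adjusted p = 0.22). In fish Ndufa8 changed by -0.55 ± 0.20 (adjusted p = 0.18) and Cox8b by -0.54 ± 0.21 (adjusted p = 0.21). In lard Ndufa2 changed by -0.43 ± 0.20 (adjusted p = 0.29) and Ndufa8 by -0.35 ± 0.18 (adjusted p = 0.31).

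The muscle medians were different without the control muscles that stood apart. Without muscles 1071 and 1120 the nuclear medians were -0.01 for soy, -0.01 for fish and 0.09 for lard, and the mitochondrial medians -0.21, -0.26 and 0.03. Leaving out muscle 1071 alone gave mitochondrial medians of -0.04 for soy, -0.14 for fish and 0.15 for lard, and leaving out control muscle 1095 gave 0.47, 0.39 and 0.67. Leaving out muscle 1120 alone gave nuclear medians of -0.04, -0.02 and 0.06. Without both, Ndufa8 stood at -0.22 for soy, -0.18 for fish and 0.02 for lard, Uqcrc1 for soy at -0.27, Cox8b for fish at -0.09 and Ndufa2 for lard at 0.13, and DESeq2 called 0, 1 and 0 members (0.704%, 0.606% and 0.212% of all genes). For fish the mitochondrial median was -0.03 without fish muscle 1067, 0.02 without fish muscle 1123 and 0.34 without fish muscle 1124, and the nuclear -0.09 without fish muscle 1124. Among the restricted diets the nuclear medians were 0.03 for fish minus soy, 0.12 for lard minus soy and -0.09 for fish minus lard, and the mitochondrial -0.07, 0.25 and -0.30. Without fish muscle 1124 the mitochondrial medians were 0.12 for fish minus soy and -0.12 for fish minus lard, and the nuclear 0.10 and -0.02. Without fish muscle 1067 the mitochondrial medians were -0.23 and -0.46 and the nuclear -0.02 and -0.16. Without soy muscle 1073 the nuclear medians were -0.05 for fish minus soy and 0.04 for lard minus soy, and without lard muscle 1101 the mitochondrial median for lard minus soy was 0.16. In these 3, edgeR and DESeq2 called 0 of 58 (0% of all genes by edgeR in each; 0%, 0% and 0.107% by DESeq2), with 0, 0 and 1 members at an unadjusted p under 0.05 (2.2%, 3.04% and 4.13% of all genes). The smallest p values belonged to Cyc1 (0.18 ± 0.17) and Cox6a2 (0.25 ± 0.29) for fish minus soy. For lard minus soy they belonged to Uqcrc1 (0.34 ± 0.17) and Cyc1 (0.29 ± 0.16), and for fish minus lard to Cox6a2 (0.68 ± 0.27) and Uqcrc1 (-0.23 ± 0.17). Several of these values moved with single libraries. Without fish muscle 1124, Cox6a2 stood at 0.02 for fish minus soy and 0.45 for fish minus lard, and Uqcrc1 at -0.11. Without soy muscle 1073, Cyc1 stood at 0.07 for fish minus soy and 0.18 for lard minus soy, and Cox6a2 for fish minus soy at 0.14.

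The effects in muscle and liver were compared by interaction terms in 1 fit of all 8 groups. For soy minus control, 1 member passed where 0.728% of all genes did: Ndufa8 differed by -1.43 ± 0.33 (muscle effect minus liver effect, edgeR adjusted p = 0.042). In this pair 36 members had an unadjusted p under 0.05, as 24.6% of all genes did. Without the 4 libraries that stood apart the value was -0.36 ± 0.17 (adjusted p = 0.59). In the other 5 diet pairs 0 members passed edgeR's test. For fish minus control 0.17% of all genes passed and 1 member had an unadjusted p under 0.05 (13.3% of all genes), and for lard minus control 0% and 0 members (8.89% of all genes). For fish minus soy 0% of all genes passed, with 32 members at an unadjusted p under 0.05 (12% of all genes), and for lard minus soy 0%, with 31 members (9.24% of all genes). For fish minus lard 0.0424% passed, with 1 member (7.45% of all genes). Without the 4 libraries the 6 pairs had 0 to 2 members at an unadjusted p under 0.05, where 6.89% to 12.4% of all genes had one.

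The 4 libraries that stood apart did so in the balance of the 2 genomes. The 45 nuclear members took 1.03% and 0.965% of exon reads in soy livers 1073 and 1159, against 0.612% to 0.653% in the other 13 livers. The 13 mitochondrially encoded members took 6.42% and 6.74%, against 7.53% to 9.87%. The ratio of mitochondrial to nuclear member reads was thus 6.22 and 6.98, where the other livers had 11.95 to 15.93. In muscle 1071 the mitochondrial members took 6.34% and the nuclear 1.19%, and in muscle 1120 they took 17.2% and 1.88%. The other muscles had 12.8% (fish muscle 1124) to 22.3% and 1.16% to 1.33%. Wilson 95% intervals on these shares reached at most 0.0212 percentage points to either side, which covers counting error only.

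**Figure D3:**
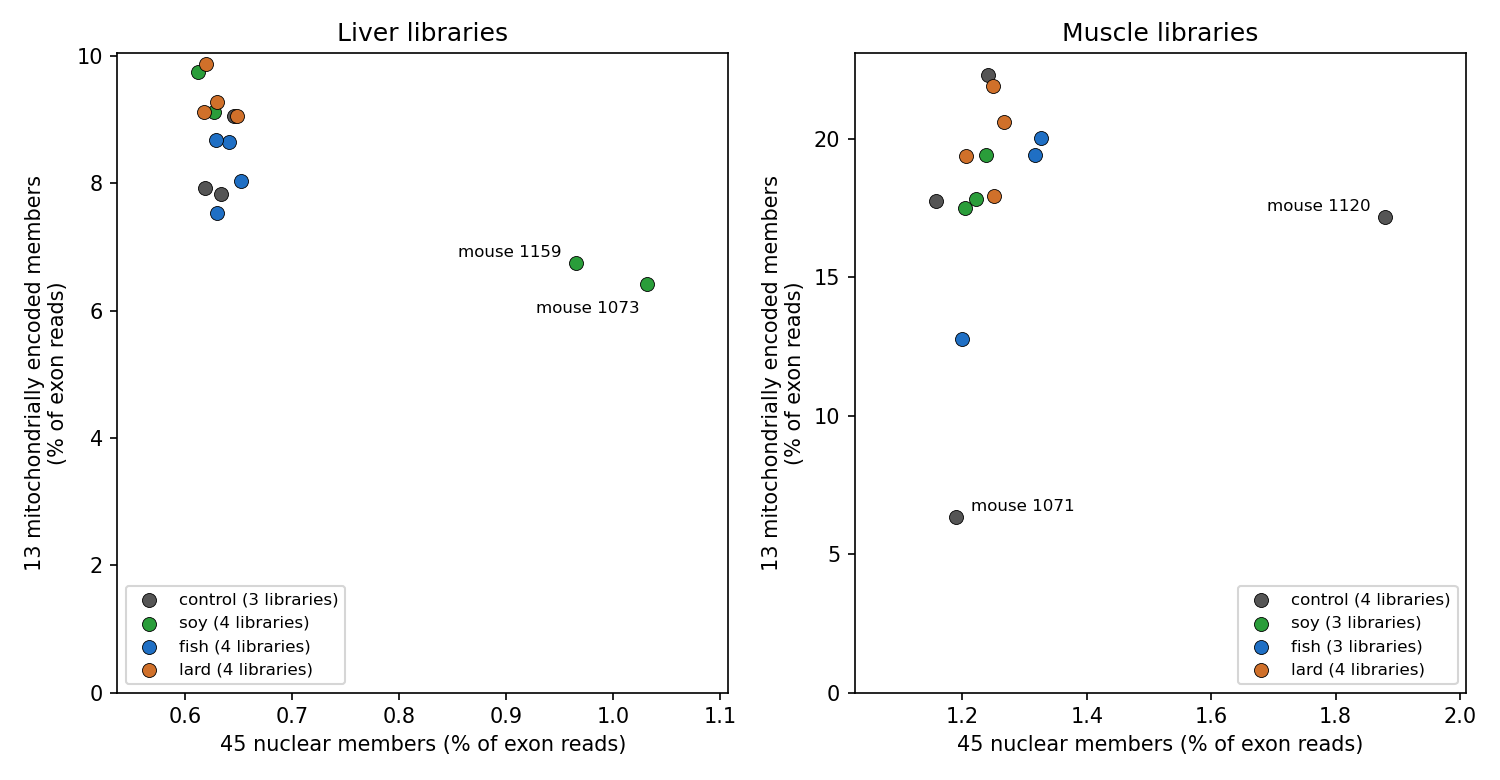
Share of exon reads on the 13 mitochondrially encoded members (vertical axis, from 0) against the share on the 45 nuclear members (horizontal axis, not from 0) for each liver (left) and muscle (right) library, coloured by diet. Soy livers 1073 and 1159 lie at 1.03% and 0.965% nuclear where the other livers lie at 0.612% to 0.653%, and control muscles 1071 and 1120 leave their group in different directions.

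Across members, the shift of the apart livers was broad for the nuclear genes. Against the median of the other livers, with library sizes scaled by TMM, 45 of 45 nuclear members were higher in liver 1073 (median log2 deviation 0.99) and 43 of 45 in liver 1159 (0.98). The TMM factors were 0.889 and 0.874 in these livers and 0.957 to 1.11 in the others, and a smaller factor raises a deviation. Ndufa2 rose furthest in liver 1073, to 235 CPM against 69.7 to 82.4 CPM in the other 13 livers. Its deviation was 1.84 with the TMM scaling, which the CPM do not carry. Ndufs1, the largest complex I subunit, had a deviation of 0.06 and Sdha, the flavoprotein of complex II, 0.06. In CPM without TMM scaling, Ndufs1, Sdha and Uqcrc2 lay below the median of the other livers in both apart livers. Their median CPM were 153, 587 and 306 over the other 13 livers and 148, 573 and 304 over all 15. Complex II had the smallest median, 0.49 in liver 1073, where complexes I, III and IV had 1.04, 0.85 and 1.06. Muscle 1120 showed the same direction in 42 of 45 nuclear members (median 0.58), and muscle 1071 in 20 of 45 (-0.07).

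In livers 1073 and 1159 and muscle 1120 these shifts went together with exon length, which is short in this gene set. The nuclear members had a median of 963 bases (362 to 3250) and the mitochondrial 784 (204 to 1824). All genes tested in liver had a median of 3168 bases. Across genes, exon length and a library's difference from the mean of its tissue had a Spearman rho of -0.65 and -0.63 in livers 1073 and 1159 and of 0.06 to 0.34 in the other livers. In muscles 1071 and 1120 it was -0.36 and -0.48, against 0.02 to 0.26. That mean includes the libraries that stood apart, so their trend shifts the values of the others in the opposite direction. The contrast is therefore partly built in. In liver 1073 all 169 tested genes under 600 bases had a median deviation of 1.11 and the 11 nuclear members there 1.03. Between 2000 and 4000 bases all 5070 genes had 0.08 and the 7 nuclear members 0.69. Liver 1159 had 0.89 and 1.04 in the short class and 0.04 and 0.60 in the long class. Reads outside exons were 5.47% and 5.41% of gene reads in these livers and 7.90% to 8.92% in the others. In muscle 1071 the short class had 0.26 over all genes and 0.22 over the nuclear members, and the long class 0.11 and -0.26. Muscle 1120 had 0.60 and 0.75 in the short class and 0.08 and 0.41 in the long class. Reads outside exons were 6.95% in muscle 1071 and 4.52% in muscle 1120, against 5.725% to 7.04% in the other muscles.

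Correcting the offsets of each library for exon length left a nuclear median of 0.18 in liver for soy minus control and moved the mitochondrial median to -0.29. Cytosolic ribosomal proteins (42 genes), also short, summed to 17272 and 16350 CPM in livers 1073 and 1159 and to 7959 to 9767 CPM in the other livers. In muscles 1071 and 1120 neutrophil markers (12 genes) summed to 311 and 1287 CPM and erythroid markers (9 genes) to 2127 and 7817 CPM. The other muscles had at most 11.4 and 1160 CPM. The part of these genes in the members' values was not tested.

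**Figure D4:**
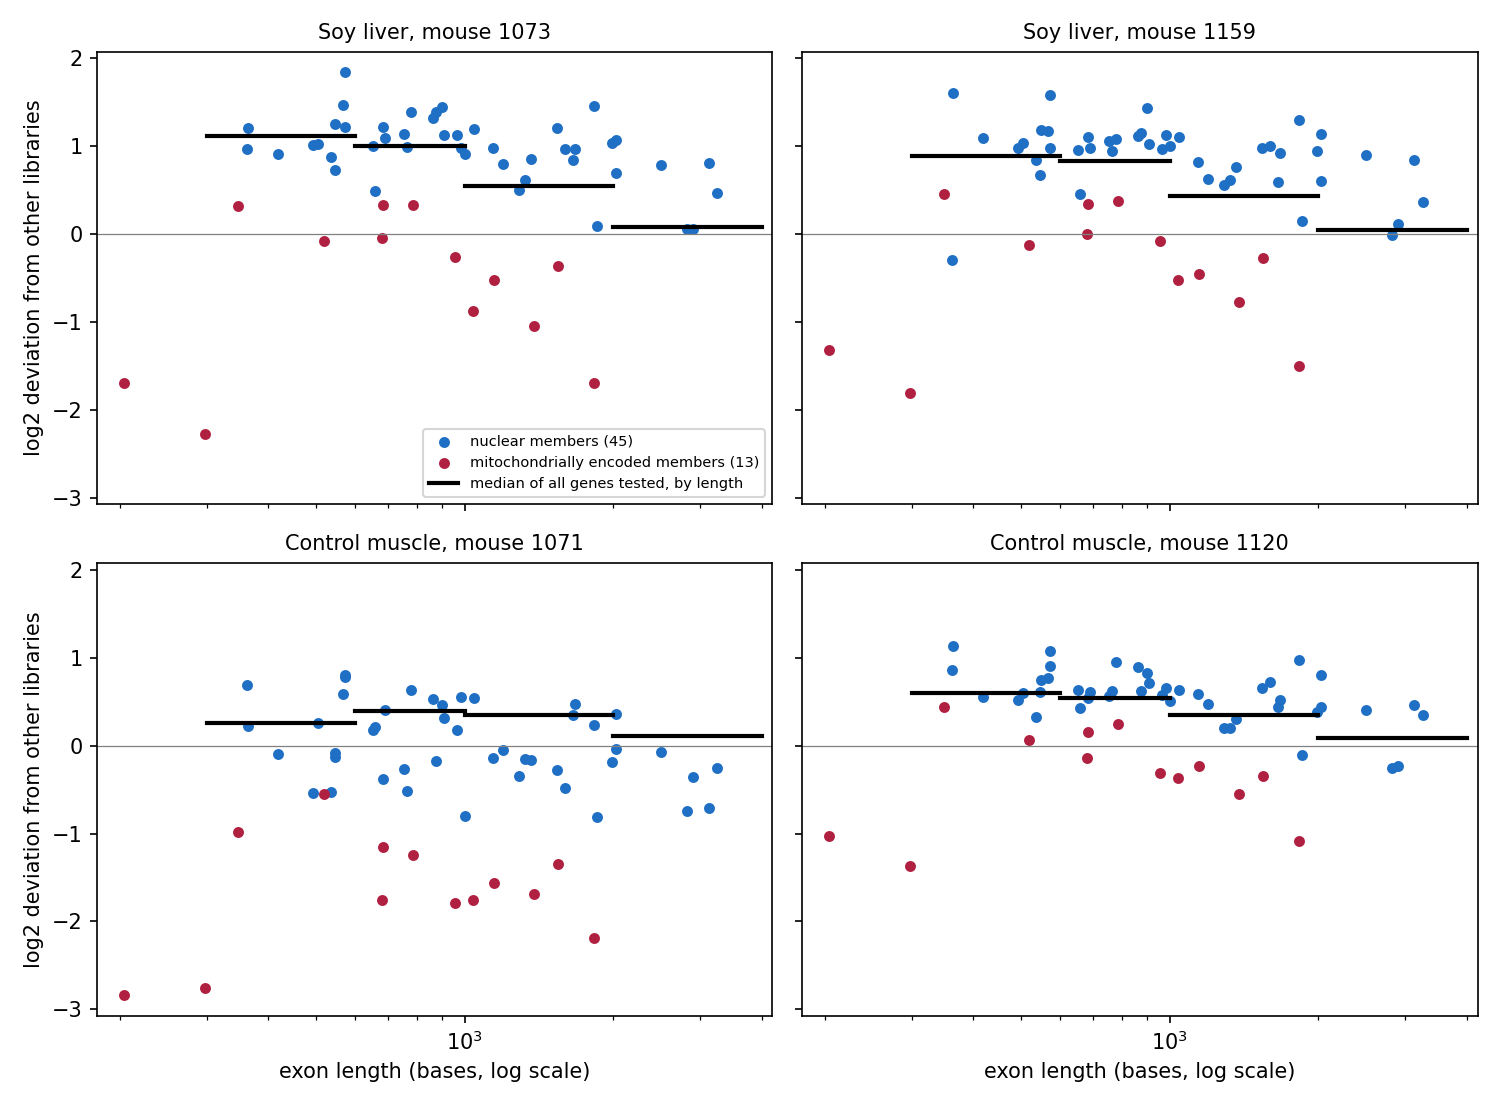
Log2 deviation of each member from the other libraries of its tissue against exon length (log scale) in the 4 libraries that stood apart; blue points are nuclear members, red points mitochondrially encoded members, and black bars the median of all genes tested in that length class, up to 4000 bases. In liver 1073 short nuclear members lie near the all-gene bar (1.03 against 1.11), members of 2000 to 4000 bases lie above it (0.69 against 0.08), and most mitochondrially encoded members lie lower.

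The mitochondrially encoded members did not follow exon length in the apart livers. With 204 bases mt-Atp8 is the shortest, and its deviation was -1.70 in liver 1073 and -1.32 in liver 1159. mt-Nd5, with 1824 bases the longest, had -1.69 and -1.50. The Spearman rho of deviation with length over the 13 was -0.09 and -0.16, and it was -0.43 and -0.38 over the 45 nuclear members. In muscle 1071 all 13 were lower than in the other muscles, from -0.55 (mt-Nd6) to -2.84 (mt-Atp8). Slow and oxidative fibre markers summed to 3391 CPM in that muscle, below the 3636 to 15116 CPM of the others without muscle 1120, and fast glycolytic fibre markers (10 genes) to 228963 CPM, above the 123307 to 166401 CPM of the others; their part was not tested.

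The reads among the 13 genes were also divided differently. mt-Co2, a core subunit of complex IV, held 14.4% and 13.5% of mitochondrial member reads in livers 1073 and 1159 against 8.86% to 9.62% in the other livers. mt-Co3 held 16.0% and 15.4% against 9.22% to 11.4%, and mt-Nd3 1.61% and 1.67% against 0.795% to 1.16%. mt-Nd5 held 2.01% and 2.14% against 4.81% to 6.33%, mt-Nd4 4.90% and 5.53% against 7.71% to 8.80%, and mt-Atp8 0.840% and 1.02% against 2.05% to 2.41%. Muscles 1071 and 1120 moved the same way in these 6 genes: mt-Co2 held 12.1% and 12.6% (others 8.89% to 9.90%) and mt-Nd5 3.64% and 3.26% (others 5.002% to 6.31%). mt-Co1 held most reads everywhere, 28.2% and 27.9% in livers 1073 and 1159, within the 27.1% to 30.7% of the others.

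The overlapping pairs shown above took different values in these libraries. mt-Atp8 had 539 and 688 CPM in livers 1073 and 1159 against 1574 to 2265 CPM in the other livers, whereas mt-Atp6, read from the same transcript, had 7229 and 7340 CPM, within the others' 6744 to 9382 CPM. In muscle 1071 mt-Atp8 deviated by -2.84 and mt-Atp6 by -1.75. mt-Nd4l had 100.7 and 137 CPM in livers 1073 and 1159 against 459 to 639 CPM, and its partner mt-Nd4 had 3147 and 3725 CPM against 5985 to 8156 CPM.

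**Figure D5:**
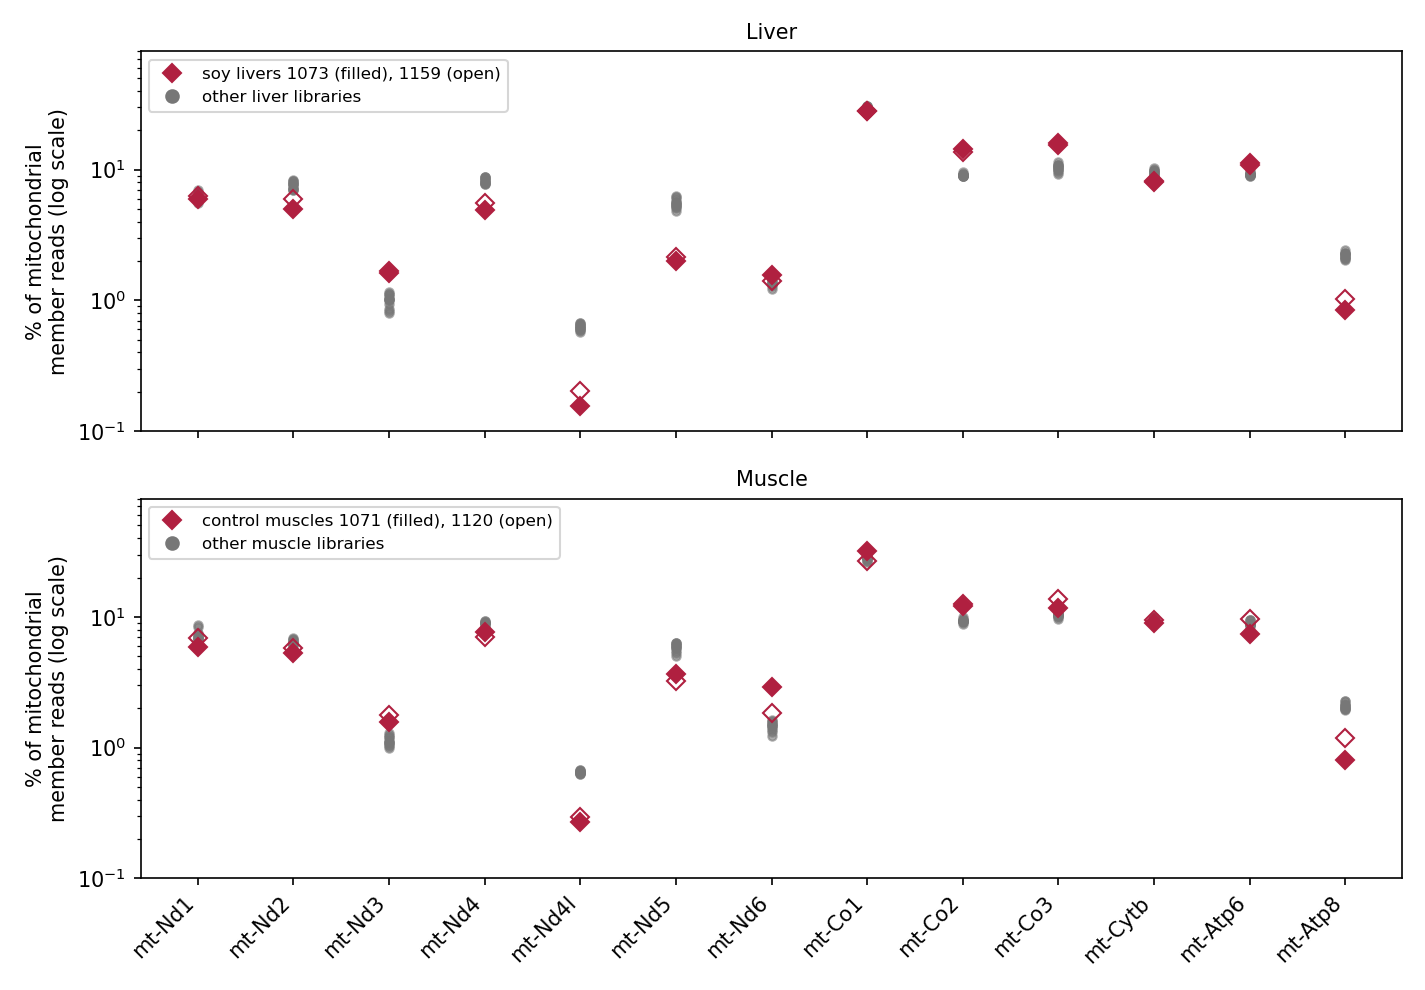
Share of mitochondrial member reads held by each of the 13 genes (log scale) in every liver (top) and muscle (bottom) library; red diamonds are the libraries that stood apart and grey points the others. mt-Nd4l, mt-Nd5 and mt-Atp8 lie below the other libraries and mt-Nd3, mt-Co2 and mt-Co3 above them in all 4 apart libraries.

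Other lists of the same machinery were compared in the soy livers. For soy minus control the medians were 0.72 for further complex I subunits, 0.70 for further subunits of complexes III and IV and 0.69 for nuclear ATP synthase subunits. They were 0.31 for assembly factors, 0.27 for the citric acid cycle, 0.17 for carriers and porins, 0.10 for mitochondrial gene expression and 0.08 for regulators. Cytosolic ribosomal proteins had a median of 0.83, with 2 of 42 passing (Rpl10 and Rpl26). Without livers 1073 and 1159 the medians of these lists ran from -0.08 (assembly factors) to 0.19 (regulators), with cytosolic ribosomal proteins at 0.16. With all livers kept, 1 gene of the mitochondrial lists passed edgeR's test for soy minus control, where 1.17% of all genes did. It was Idh3a, with 0.56 ± 0.13 (adjusted p = 0.045). In the other 11 diet comparisons 0 genes of these 8 lists passed with all libraries kept. Without livers 1073 and 1159, 0 citric acid cycle genes and 0 cytosolic ribosomal protein genes passed for soy minus control. There 1 of 41 assembly factors passed as lower for soy minus control, and 1 of 41, also lower, for lard minus control. The shares of all genes called by edgeR in that fit are given above with each comparison.

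Over the 29 libraries, log2 CPM centred within tissue, the genes outside the lists most like the mean of the nuclear members were Atp5mpl, a small ATP synthase subunit (Pearson r = 0.98), and Mrpl51, of the mitochondrial ribosome (0.96). Acot13, a mitochondrial thioesterase (0.95), Sem1, a proteasome subunit (0.95), and Minos1, of the inner membrane organising complex (0.95), came next among 10648 candidates. Without the 4 apart libraries (n = 25) the values were 0.79, 0.83, 0.77, 0.58 and 0.61. These points share library depth and preparation, and the correlations are descriptions.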

How the data were processed

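The authors made TruSeq libraries from Trizol-extracted RNA, per the labels. FastQC and the GRCm38 build are named in the submitters' processing notes; no source used here names the aligner or counter. Per the file headers, the authors made the deposited counts by summing reads over the exons of each gene (all reads, and unique reads) and over the whole gene. The deposited RPKM divide exon reads by exon length and library depth, per the file headers. Exon length is given beside them in the 8 tables. A library in several tables was compared between them, and 0 of 116 columns differed. Symbols were matched to 36345 of 38124 identifiers. In R 4.3.3, total exon reads were kept by filterByExpr (minimum count 10; 12788 genes in liver, 13104 in muscle, 14150 over both), normalized by TMM and tested with edgeR 4.0.16 (quasi-likelihood, two-sided, Benjamini-Hochberg adjusted p under 0.05). SE is the log2 fold change over the square root of F. CPM divide by total exon reads of a library. A deviation is a library's log2 CPM (prior count 2), here with the library size scaled by its TMM factor, minus the median of the libraries of its tissue that do not stand apart. The CPM printed elsewhere carry no TMM factor. Alternatives used DESeq2 1.42.0, limma 3.58.1 (voom), loess offsets on exon length (span 0.5), other filters, unique reads and left-out libraries. The code was tested on simulated data.

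The members, lists and the 4 libraries were chosen with earlier results of these data known. Where no member passed, the 2 of smallest p are named; in the tissue comparison the isoform pairs and the members of largest difference; of each list up to 3 genes past the threshold. The interaction terms were added after the data were seen. Mouse numbers pair liver and muscle of 1 animal, per the labels; of 13 pairs 2 had a correlation of deviations over 0.1 (median 0.05). Every pair of libraries of a group differed by more than sampling noise (chi-square per degree of freedom at least 10.95).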

Additional observations from a re-analysis of the deposited data

Results flagged for a closer look

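Among 77 sets of 4 values examined, each a measure or a gene in a diet group of 4 libraries, 7 held an outlying library. There the gap to the nearest other exceeded Dixon's 95% critical value as a share of the range. Chance gives about 1 in 20 for independent sets. These sets reuse the same libraries and some genes were picked by smallest p, so the count of 7 is not read against that rate. In fish livers the outlying values were those of liver 1123 for Cox6a2 (11.8 CPM), Cox7a1 (6.83 CPM) and Cox8b (6.77 CPM). In lard livers Cox7a1 in liver 1101 (3.53 CPM against 2.34 to 2.49 CPM) stood out. In control muscles muscle 1120 stood out for the nuclear members (1.88% of exon reads against 1.16% to 1.24%), Cox7a1 (439 CPM against 181 to 213 CPM) and Cox8a (41.2 CPM against 20.5 to 21.7 CPM).

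The effect of soy minus control differed between muscle and liver for 1 member, Ndufa8, by the interaction term described above, where 0.728% of all genes passed. Without the 4 libraries that stood apart 0 members passed. The genes mt-Rnr1 and mt-Rnr2, which no comparison uses, held at least 2983 and 3894 gene reads in every library with 0 exon reads.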

How the results depend on the processing

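DESeq2 called 15 members for soy minus control in liver, 1 for lard minus control, 28 for fish minus soy, 8 for lard minus soy and 1 for fish minus lard, where edgeR called 0; DESeq2 called 6.77%, 2.14%, 6.36%, 1.18% and 1.28% of all genes. With exon length in the offsets the liver medians were 0.18 nuclear and -0.29 mitochondrial for soy minus control, -0.17 and 0.17 for fish minus soy, and -0.068 nuclear for lard minus soy. Without livers 1073 and 1159 the nuclear medians were 0.056, -0.047 and 0.044. With both changes, chosen after seeing the data, they were 0.087, -0.068 and -0.0010, and the mitochondrial median for lard minus soy was -0.0074. edgeR then called 1 member for lard minus control (mt-Nd1, adjusted p = 0.047) and 1 for fish minus lard (mt-Nd3, adjusted p = 0.045). The share of all genes called with both changes is not given here, so these calls cannot be read against it.

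Directions turned for Ndufa2 in liver lard minus soy (0.017) and in muscle lard minus control (0.13; 0.048 with length) and for Ndufa8 there (0.023) without the libraries that stood apart. They also turned for Uqcrq between tissues, to 0.039 with length and 0.33 in controls alone. Leaving out 1 library gave 0 to 34 members for soy minus control, 0 to 41 for fish minus soy and 0 to 24 for lard minus soy in liver. The calls came only without soy liver 1065 (12.7%, 16.4% and 6.12% of all genes) or 1141 (10.4%, 10.4% and 4.1%), which leaves the apart livers as 2 of 3. Cox7a2 between tissues ran from -0.026 to 0.069. Between tissues edgeR called 55 members with length in the offsets or with unique reads and 46 in controls alone, where Sdhd (-0.14 and -0.08) no longer passed under the first and last. In the main fit 86.6% of all genes passed. The shares under these settings are not given here, and controls alone hold fewer libraries, so the counts cannot be read against all genes. By DESeq2 without the libraries that stood apart, chosen after seeing the data, 3 members were called for lard minus control and 8 for fish minus lard in liver and 1 for fish minus control in muscle. The nuclear medians involving soy livers were then 0.055, -0.048 and 0.048, and Ndufa2 (0.019 in liver, 0.12 in muscle) and Ndufa8 (0.017) turned again. The cause was not tested.

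With the animal as a replicate block the tissue comparison called 56 members, 53 higher and 3 lower, and the share of all genes under that setting is not given here. With the library number as a replicate block 0 members were called in all 12 diet comparisons; 3 of 15 livers and 2 of 14 muscles correlated best with their own number. With the mitochondrially encoded genes left out of the table the nuclear median for soy minus control in liver was 0.61. Depth limits the muscle isoforms in liver, at under 1 CPM in most livers for Cox8b.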
